A study of Mus musculus with 96 samples.

Results

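The basement membrane collagens are the 8 mouse genes Col4a1, Col4a2, Col4a3, Col4a4, Col4a5, Col4a6, Col15a1 and Col18a1, taken by name from the 50944 genes listed in every file. All 8 passed the filter on low counts in every cell type, though Col4a6 in cardiomyocytes only through days after infarction. Total RNA was sequenced from hematopoietic cells (HC), fibroblasts (FB), endothelial cells (EC) and cardiomyocytes (CM) of the hearts of male C57Bl/6J mice aged 12 to 14 weeks. Hearts were taken 1, 3, 7, 14 and 28 days after acute myocardial infarction (AMI), for which the left anterior descending artery was tied off permanently, and from mice that were not operated on (Day 0). CM were collected by low-speed centrifugation, EC with beads against CD144, HC with beads against CD45, and FB by letting the unbound cells attach to plates for 40 min. The 24 groups (cell type and day) had 4 libraries each, 96 in all, and n = 4 holds for every group value. A library was a pool of RNA of 3 mice, or fewer where a sample was missing. The pools of the 4 cell types of a day were drawn from the same mice, and the tests treat them as separate samples.

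Basement membranes are thin sheets of matrix that surround capillaries and single cardiomyocytes. Collagen IV is their structural network. Its 6 alpha chains, each from a gene of its own, assemble into α1α1α2 trimers, which are found in nearly all basement membranes, and into α3α4α5 and α5α5α6 trimers, which are found in few tissues. Collagens XV and XVIII, from Col15a1 and Col18a1, carry glycosaminoglycan chains and sit where the basement membrane meets the surrounding matrix. The C-terminal fragment of collagen XVIII is endostatin, an inhibitor of angiogenesis.

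The collagen IV genes lie in head-to-head pairs that are transcribed in opposite directions. On mm10, Col4a1 is at chr8:11198423-11312826 on the minus strand and Col4a2 at chr8:11312805-11449287 on the plus strand, so that their annotated starts are 21 bp apart and the genes overlap by 22 bases. Col4a4 (chr1:82448423-82586849, minus) and Col4a3 (chr1:82586921-82722059, plus) start 72 bp apart. Col4a6 (chrX:141165403-141474076, minus) and Col4a5 (chrX:141475385-141689234, plus) start 1309 bp apart. Col15a1 (chr4:47208161-47313167, plus) and Col18a1 (chr10:77052178-77166548, minus) have no such partner. The start regions of the pairs Col4a1 with Col4a2 and Col4a4 with Col4a3, in which 1 window covers both starts, and of both Col18a1 starts are given here from RefSeq (GRCm38.p6), each from 250 bases before to 50 bases after the start and read along the gene's own strand. Of the 8 genes, 7 had such a window (Col4a3 is covered by the Col4a4 window). The windows were searched on both strands for GGGCGG (the GC box), CCAAT (the CCAAT box), TATAAA (the TATA box) and the motif CCCTCCCC, and matches are in capitals.
Col4a1, with the Col4a2 start, chr8:11312777-11313076, minus strand: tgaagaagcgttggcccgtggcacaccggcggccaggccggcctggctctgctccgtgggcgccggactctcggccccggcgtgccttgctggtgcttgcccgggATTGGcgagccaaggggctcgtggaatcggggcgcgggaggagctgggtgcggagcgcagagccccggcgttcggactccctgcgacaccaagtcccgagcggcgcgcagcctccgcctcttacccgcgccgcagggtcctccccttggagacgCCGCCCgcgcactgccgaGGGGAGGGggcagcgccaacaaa
Col4a4, with the Col4a3 start, chr1:82586800-82587099, minus strand: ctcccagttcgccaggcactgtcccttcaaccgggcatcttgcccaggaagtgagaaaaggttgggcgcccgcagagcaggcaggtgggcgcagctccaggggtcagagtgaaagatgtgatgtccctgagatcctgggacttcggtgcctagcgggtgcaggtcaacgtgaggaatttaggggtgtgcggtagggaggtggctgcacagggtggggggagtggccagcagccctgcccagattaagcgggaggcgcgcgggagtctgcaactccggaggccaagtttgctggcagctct
Col18a1, upstream start, chr10:77166481-77166780, minus strand: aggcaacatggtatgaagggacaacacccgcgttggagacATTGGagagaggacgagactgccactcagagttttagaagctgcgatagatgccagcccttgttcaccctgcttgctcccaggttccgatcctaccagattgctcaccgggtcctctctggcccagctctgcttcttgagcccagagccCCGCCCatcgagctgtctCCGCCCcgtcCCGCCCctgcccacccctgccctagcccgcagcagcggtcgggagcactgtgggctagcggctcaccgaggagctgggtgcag
Col18a1, downstream start, chr10:77113656-77113955, minus strand: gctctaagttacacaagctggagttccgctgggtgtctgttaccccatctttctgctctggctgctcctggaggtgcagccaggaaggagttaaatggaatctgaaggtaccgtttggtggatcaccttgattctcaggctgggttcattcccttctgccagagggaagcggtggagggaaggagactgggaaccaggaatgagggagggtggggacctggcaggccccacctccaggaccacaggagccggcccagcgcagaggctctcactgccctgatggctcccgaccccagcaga
The Col4a1 window held a GC box, a CCAAT box and a match to CCCTCCCC, all on the opposite strand. It covers few bases before the Col4a2 start. The window of Col4a2 itself (chr8:11312555-11312854, sequence not shown) held 3 GC boxes, 1 CCAAT box and 1 match to CCCTCCCC. The Col4a5 window held 1 of each of these 3 motifs, the Col4a6 window 1 GC box and the Col15a1 window no match. No window of a member held a TATA box. The Col18a1 upstream window held 3 GC boxes and 1 CCAAT box. The Col4a4 window and the Col18a1 downstream window held none of the 4 motifs. Of 32851 windows in that table, 35.7% held a GC box, 37.4% a CCAAT box, 13.6% a TATA box and 10.8% CCCTCCCC.

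Libraries held 13503024 to 55758471 estimated reads in CM, 12445124 to 33868990 in EC, 2664338 to 36545715 in FB and 16214419 to 40395291 in HC. All 16 markers that the study used were highest in their own cell type. In 8 libraries, a set of transcripts led by Capn12 stood apart from the other libraries of the same groups (Capn12 at 12.2 to 91.0 reads in 1000000, against 0.108 to 2.82 in the other 12). In FB these were replicates 2 and 3 of Day 3 and replicate 4 of Day 28, in EC replicates 1 and 2 of Day 0 and replicate 3 of Day 28, and in HC replicates 2 and 4 of Day 28. The FB Day 3 libraries among them were also the shallowest, with 2664338 and 3508819 reads. The study removed outlier replicates of FB Day 3 and HC Day 28 from its total RNA data, which it does not name. The main tests here kept all 96 libraries. Replicates are described as biological in one place and as technical in another, and p-values measure only the spread between these pools. Time courses are given as CPM (reads in 1000000 after TMM scaling within a cell type), and levels between genes or cell types as RPKM (reads in 1000000, TMM over all 96 libraries, per kilobase of the longest transcript). Calls are at an adjusted p below 0.05 over all genes tested, and a value after ± is an SD for a level and an SE for a log2 fold change. Markers of other cells were present in the isolates at Day 0. The 4 CM markers summed to 4472 ± 1147 CPM in CM, 2108 ± 442 in HC, 1941 ± 433 in EC and 29.4 ± 9.87 in FB. The 4 EC markers summed to 3883 ± 476.5 in EC, 532.5 ± 92.9 in HC, 301.5 ± 57.2 in FB and 77.3 ± 14.7 in CM. For 10 mural cell markers the sums were 3302 ± 273 in EC, 901 ± 71.4 in FB, 596 ± 92.6 in HC and 190.6 ± 25.3 in CM. These sums are CPM scaled within each cell type, so they cannot be compared between cell types. They are taken over all reads, of which rRNA was 53.1% to 63.5% in CM libraries and at most 27.5% in the others. The part of other cells in the levels of the cell types was not tested.

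In the unoperated heart, FB libraries had the highest summed RPKM of the 8 genes. The 8 genes summed to 426 ± 27.7 RPKM in FB, 188 ± 29.3 in EC, 36.6 ± 4.37 in HC and 31.1 ± 7.94 in CM at Day 0. Col4a1 and Col4a2, the genes of the ubiquitous α1α1α2 trimer, were at similar RPKM in FB and EC. Col4a1 was at 142 ± 9.43 RPKM in FB, 111 ± 16.8 in EC, 17.7 ± 2.24 in HC and 14.5 ± 3.87 in CM. Neither FB and EC nor HC and CM were called different (log2 fold change of EC against FB −0.35, adjusted p = 0.111, and of CM against HC −0.28, adjusted p = 0.194). The median log2 fold change of all genes was 0.046 in EC against FB, but −0.457 in CM against HC. Col4a2 was at 55.9 ± 9.35 RPKM in EC, 51.2 ± 4.59 in FB, 10.2 ± 1.47 in HC and 9.88 ± 3.71 in CM, with the same neighbours not called (EC against FB 0.12, adjusted p = 0.632, and CM against HC −0.04, adjusted p = 0.887). In TPM, EC lay below FB for both, with 45.7 ± 22.3 TPM in EC and 196 ± 27.7 in FB for Col4a1, and 38.8 ± 12 in EC and 71.6 ± 12.2 in FB for Col4a2.

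Most of the other genes had a higher RPKM in FB than in the other cell types. Col15a1 had the highest RPKM of the 8 genes in FB, 194 ± 14.8, against 14.2 ± 2.89 in EC, 6.22 ± 0.643 in HC and 1.57 ± 0.437 in CM. Col4a3 was at 6.51 ± 0.425 RPKM in FB and 0.614 ± 0.14 in EC, and Col4a4 at 12.5 ± 0.61 in FB and 1.25 ± 0.0765 in EC. Both were lower still in HC and CM. Col4a6 reached 2.95 ± 0.558 RPKM in FB and no more than 0.212 in any EC library at Day 0. Col18a1 was the exception, with 4.25 ± 0.277 RPKM in FB and 3.17 ± 0.157 in EC, which were not called different (log2 fold change of EC against FB −0.43, adjusted p = 0.117), and with 5.36 ± 0.862 TPM in FB and 1.92 ± 0.364 TPM in EC. In EC against FB at Day 0, 5 of the 8 genes were lower and 0 higher, where 28.1% of all genes were called lower and 29.2% higher.

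Col4a5, whose chain enters both of the restricted trimers, was the one member with a higher Day 0 RPKM in CM than in EC and HC. At Day 0 it was at 13.3 ± 1.32 RPKM in FB, 4.43 ± 0.443 in CM, 1.36 ± 0.268 in EC and 1.04 ± 0.0472 in HC. CM exceeded EC by 1.70 ± 0.20 on the log2 scale (adjusted p = 3.81e-12) and HC by 2.09 ± 0.20 (adjusted p = 1.67e-15), while EC and HC were not called different (0.39 ± 0.20, adjusted p = 0.0946). The TPM means ran in the other order, with 0.297 ± 0.0737 in CM, 0.343 ± 0.152 in EC and 0.503 ± 0.122 in HC. The transcript Col4a5-204, which is listed from chrX:141630124 and lacks the first part of the gene, took 55.6% ± 20.2 of the Col4a5 reads in CM at Day 0, against 15.6% ± 18.1 in EC.

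**Figure D1:**
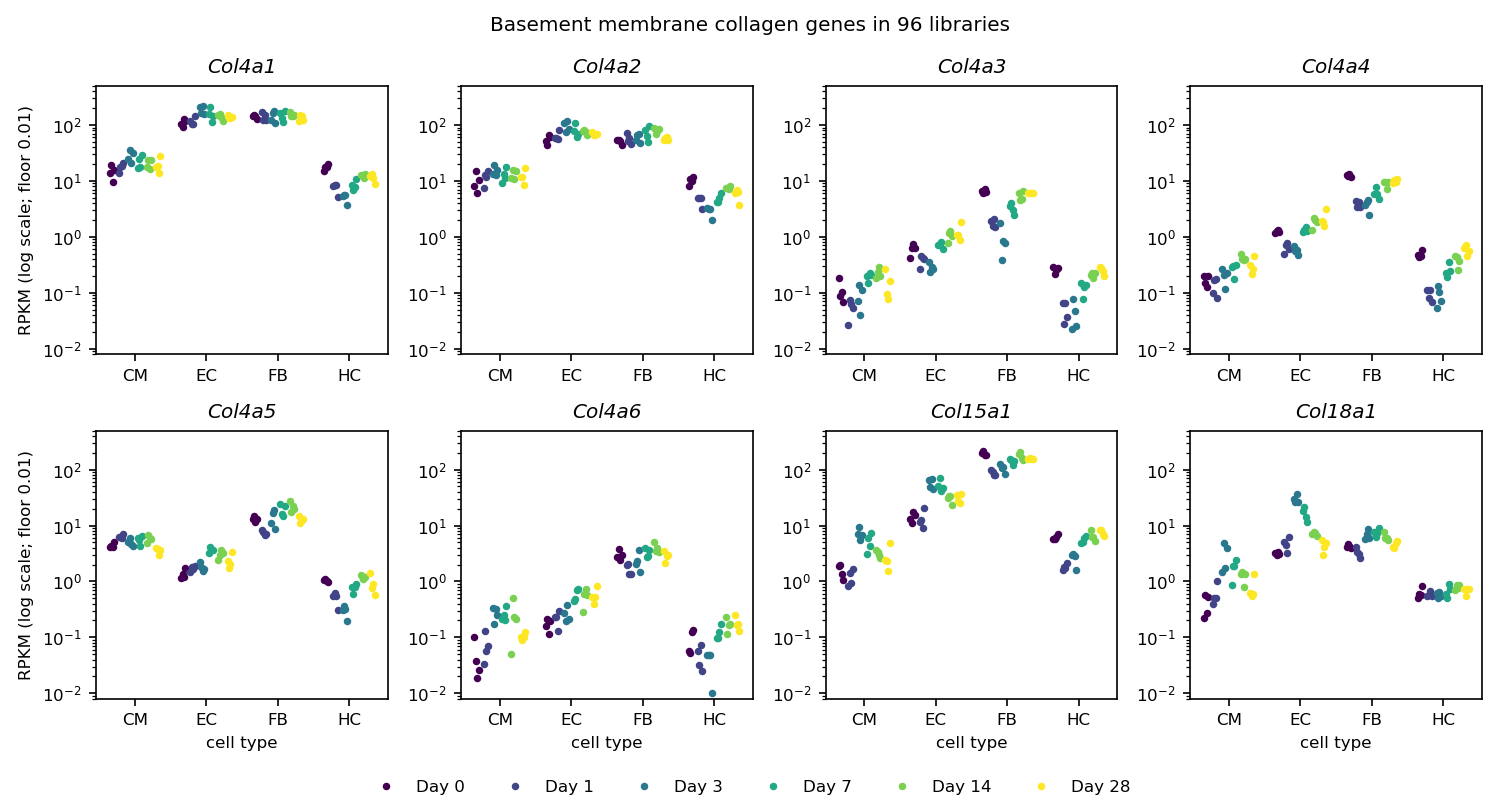
RPKM of the 8 genes in CM, EC, FB and HC on a log axis (values under 0.01 drawn at 0.01), with each of the 96 libraries as a point colored by day. FB and EC lie close to each other for Col4a1 and Col4a2, FB lie highest for Col15a1 (mean 194 at Day 0), and CM lie above EC for Col4a5 at Day 0.

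Over all days, each cell type was set against the mean of the others, with 21998 genes tested. All 8 genes were higher in FB, where 39.5% of all genes were, by 1.58 ± 0.08 (Col18a1) to 4.28 ± 0.07 (Col15a1) on the log2 scale. In EC, Col18a1 (2.35 ± 0.07), Col4a1 (2.21 ± 0.06), Col4a2 (2.15 ± 0.06) and Col15a1 (1.22 ± 0.07) were higher and Col4a5 was lower (−0.75 ± 0.07), where 40.5% of all genes were higher and 30.6% lower. Col4a3 and Col4a4 were higher in EC by 0.77 ± 0.08 and 0.65 ± 0.07 on counts but lower by −0.19 and −0.14 on log2(TPM + 1). HC were lower for all 8 (34.4% of all genes), by −2.31 to −2.94. In CM, where the median of all genes was −0.69 and 29.8% were higher and 51.5% lower, 7 were lower and Col4a5 was higher by 0.86 ± 0.06, but lower by −0.92 on log2(TPM + 1). Each cell type had its own library preparation batch, so cell type and batch cannot be told apart in these comparisons.

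The ratio within a head-to-head pair varied least for Col4a1 and Col4a2 in each cell type. The RPKM ratio of Col4a1 to Col4a2 had a median of 1.96 in EC libraries (1.74 to 2.15), 2.35 in FB (1.79 to 2.89), 1.73 in HC (1.58 to 2.3) and 1.58 in CM (1.28 to 1.96). In FB it averaged 1.91 on Day 14, against 2.78 at Day 0 (log2 ratio 0.93 ± 0.12 and 1.47 ± 0.04). Col4a3 to Col4a4 had a median of 0.56 in EC (0.365 to 0.654) and 0.523 in FB (0.187 to 0.677, 23 libraries with enough reads), and ran from 0.355 to 0.716 in HC and from 0.352 to 1.32 in CM (13 libraries). Col4a5 to Col4a6 had medians of 5.06 in FB (3.76 to 7.39), 6.5 in EC (3.87 to 13.2), 6.96 in HC (21 libraries, 4.3 to 21.1) and 22.2 in CM (12 libraries, 13.2 to 34.8). As a fold from the lowest to the highest library, this range was wider than that of Col4a3 to Col4a4 in EC and HC, and narrower in FB and CM. The lowest Col4a3 to Col4a4 ratio in FB, 0.187, came from Day 3 replicate 3, a shallow library that stood apart. Col4a1 and Col4a2 had the most reads of the pairs, and the part of read number in these ranges was not tested. Across the 24 group means, Pearson's r of log2 levels was 0.995 for Col4a1 and Col4a2, 0.989 for Col4a3 and Col4a4 and 0.779 for Col4a5 and Col4a6. The means share their libraries, and cell types dominate this spread. In the 22 bases where the Col4a1 and Col4a2 exons overlap, reads of the genes cannot be told apart, since the counting is not stated to use strand. For the same reason Col18a1 cannot be told apart from Slc19a1, and Col4a3 from C430014B12Rik, where they overlap.

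In endothelial cells, most calls were rises. Against Day 0, 21 results of a gene and a day were higher and 4 lower of the 40 possible. Of the 8 genes, 2 were called on Day 1 (0 higher, 2 lower), 6 on Day 3 (4 higher, 2 lower), 6 on Day 7, 6 on Day 14 and 5 on Day 28 (all higher). On the same days 9.86%, 23.2%, 18%, 12.8% and 16.3% of all 18144 genes were called higher and 9.11%, 22.3%, 19.6%, 14.3% and 17.4% lower. At an unadjusted p under 0.05, 1 gene was higher on Day 1 and 0 were lower on Day 7, Day 14 and Day 28, and DESeq2 called 1 and 0. On log2(TPM + 1), where the median tested gene itself moved by up to 0.81, the split was 25 higher and 0 lower.

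Col18a1 rose most. Its EC libraries had 29.2, 26.1, 27.1 and 25.1 CPM at Day 0, 41.9, 37.4, 26.6 and 51.6 on Day 1, 245, 224, 308 and 222 on Day 3, 150.4, 177, 119 and 94.6 on Day 7, 58.6, 63.1, 61.1 and 51.8 on Day 14, and 46.3, 24.5, 35.6 and 41.2 on Day 28. All libraries of Day 3, Day 7 and Day 14 lay above all of Day 0, and those of Day 28 overlapped with Day 0. The log2 fold change against Day 0 was 3.21 ± 0.21 on Day 3 (adjusted p = 1.04e-09), 2.33 ± 0.21 on Day 7 (adjusted p = 5.81e-08) and 1.13 ± 0.20 on Day 14 (adjusted p = 0.000581). Day 1 and Day 28 were not called (0.55 ± 0.20, adjusted p = 0.0562, and 0.46 ± 0.20, adjusted p = 0.0814). From one day to the next, Col18a1 was higher on Day 3 than on Day 1 (2.66 ± 0.21), lower on Day 7 than on Day 3 (−0.88 ± 0.20) and lower again on Day 14 than on Day 7 (−1.21 ± 0.20), where 13.2% of all genes were higher, and 14.8% and 2.04% lower.

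Col15a1, the other multiplexin, rose on the same day and stayed up. It had 513, 380.0, 533 and 347 CPM on Day 3 and 386, 542, 326 and 356 on Day 7, against 108, 89.3, 134 and 113 at Day 0. These groups did not overlap. The log2 fold changes were 2.00 ± 0.23 on Day 3 (adjusted p = 6.49e-07), 1.86 ± 0.23 on Day 7 (adjusted p = 3.71e-06) and 1.12 ± 0.22 on Day 28 (adjusted p = 0.000613). On Day 28 it was still at 274, 209.8, 202 and 284 CPM, above every Day 0 library.

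On counts, the major collagen IV chains rose less and for a shorter time. Col4a1 had 2103, 1657, 2190.0 and 1565 CPM in EC on Day 3, against 1106, 949.6, 1254 and 1138 at Day 0 (log2 fold change 0.76 ± 0.16, adjusted p = 0.000514). Col4a2 had 1034, 750.1, 1144 and 833 CPM, against 537, 456, 627 and 558 (0.79 ± 0.16, adjusted p = 0.000386). For both, the groups did not overlap. On Day 7 both were called (0.47 ± 0.16 and 0.48 ± 0.16), but Col4a1 was at 0.31 (adjusted p = 0.118) without EC Day 7 replicate 2 and at 0.42 (adjusted p = 0.0586) without EC Day 0 replicate 2, and Col4a2 at 0.31 (adjusted p = 0.126) and 0.42 (adjusted p = 0.0623). Neither was called on counts on Day 14 or Day 28. In TPM, Col4a1 was at 45.7 ± 22.3 at Day 0, 93.2 ± 27 on Day 3, 148 ± 7.38 on Day 14 and 168 ± 15.3 on Day 28. Col4a2 was at 38.8 ± 12, 56.8 ± 8.32, 51.7 ± 5.03 and 55.5 ± 6.57 TPM on these days. On log2(TPM + 1) the median tested gene moved by 0.69 on Day 14 and 0.81 on Day 28.

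Col4a3 and Col4a4, the genes of the chains best known from the kidney filter, moved the other way first. Col4a4 had 7.30, 10.5, 11.2 and 8.94 CPM in EC on Day 1 and 10.2, 8.60, 8.93 and 7.18 on Day 3, against 18.7, 20.3, 19.9 and 17.8 at Day 0. The log2 fold changes were −1.01 ± 0.18 and −1.13 ± 0.18 (adjusted p = 0.000439 and 2.54e-05), with no overlap. Col4a3 had 4.57, 3.08, 3.62 and 3.46 CPM on Day 3, against 5.76, 8.62, 9.53 and 7.77 (−1.11 ± 0.22, adjusted p = 0.000289). By Day 28 both lay above Day 0, with 28.7, 27.9, 24.6 and 46.7 CPM for Col4a4 (0.74 ± 0.17, adjusted p = 0.00236) and 13.6, 13.6, 11.8 and 23.4 CPM for Col4a3 (0.98 ± 0.21, adjusted p = 0.0011). Col4a4 on Day 14 (0.49 ± 0.17) lost its call without EC Day 0 replicate 1, 2 or 4 or EC Day 14 replicate 2, 3 or 4 (0.41 to 0.54, adjusted p = 0.0528 to 0.117), and Col4a3 on Day 1 (−0.71 ± 0.21) without EC Day 0 replicate 2 or 3 or EC Day 1 replicate 1 or 4 (−0.71 to −0.57, adjusted p = 0.0592 to 0.0801). The falls on Day 1 and Day 3 were not called on log2(TPM + 1).

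Col4a5 and Col4a6 rose later. Col4a5 was not called on Day 3 (0.40 ± 0.17, adjusted p = 0.0588), and on Day 7 had 31.1, 39.2, 35.8 and 36.1 CPM, against 11.9, 14.2, 11.5 and 16.3 at Day 0 (1.40 ± 0.17, adjusted p = 2.73e-06). It remained higher on Day 28 (0.78 ± 0.17, adjusted p = 0.00126). Col4a6 had 4.37, 4.70, 7.10 and 7.13 CPM on Day 7, against 1.69, 2.23, 1.09 and 1.84 (1.76 ± 0.31, adjusted p = 0.000191), and 1.73 ± 0.31 on Day 28. Both groups were above all Day 0 libraries. Between Day 7 and Day 3, Col4a3 (1.31 ± 0.22), Col4a4 (1.19 ± 0.18), Col4a5 (1.00 ± 0.17) and Col4a6 (1.12 ± 0.30) were all higher, where 8.48% of genes were called higher.

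Of the 4 EC Day 0 libraries, 2 stood apart, so the results were also taken without those 8 libraries. Col18a1 on Day 3 was then 3.26, Col15a1 1.84, Col4a1 0.65, Col4a2 0.67, Col4a3 −1.23 and Col4a4 −1.11, all called. The calls of Col4a1 and Col4a2 on Day 7 and of Col4a3, Col4a4 and Col15a1 on Day 14 were lost, at 0.37, 0.36, 0.63, 0.52 and 0.91 (adjusted p = 0.193, 0.21, 0.0997, 0.122 and 0.0521). Other cells' markers moved in the EC isolate too. The summed CPM of 10 mural cell markers was 1269 to 1526 on Day 3 against 3104 to 3696 at Day 0 (9 of 10 called lower), that of 4 FB markers 161 to 328 on Day 7 against 74.0 to 98.8 (3 of 4 called higher), and that of 4 CM markers 654 to 1121 on Day 3 against 1429 to 2464 (3 of 4 called lower). Their part in these results was not tested. In RNA of whole isolates, a change in the number of cells of a type and a change of RNA per cell cannot be told apart.

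**Figure D2:**
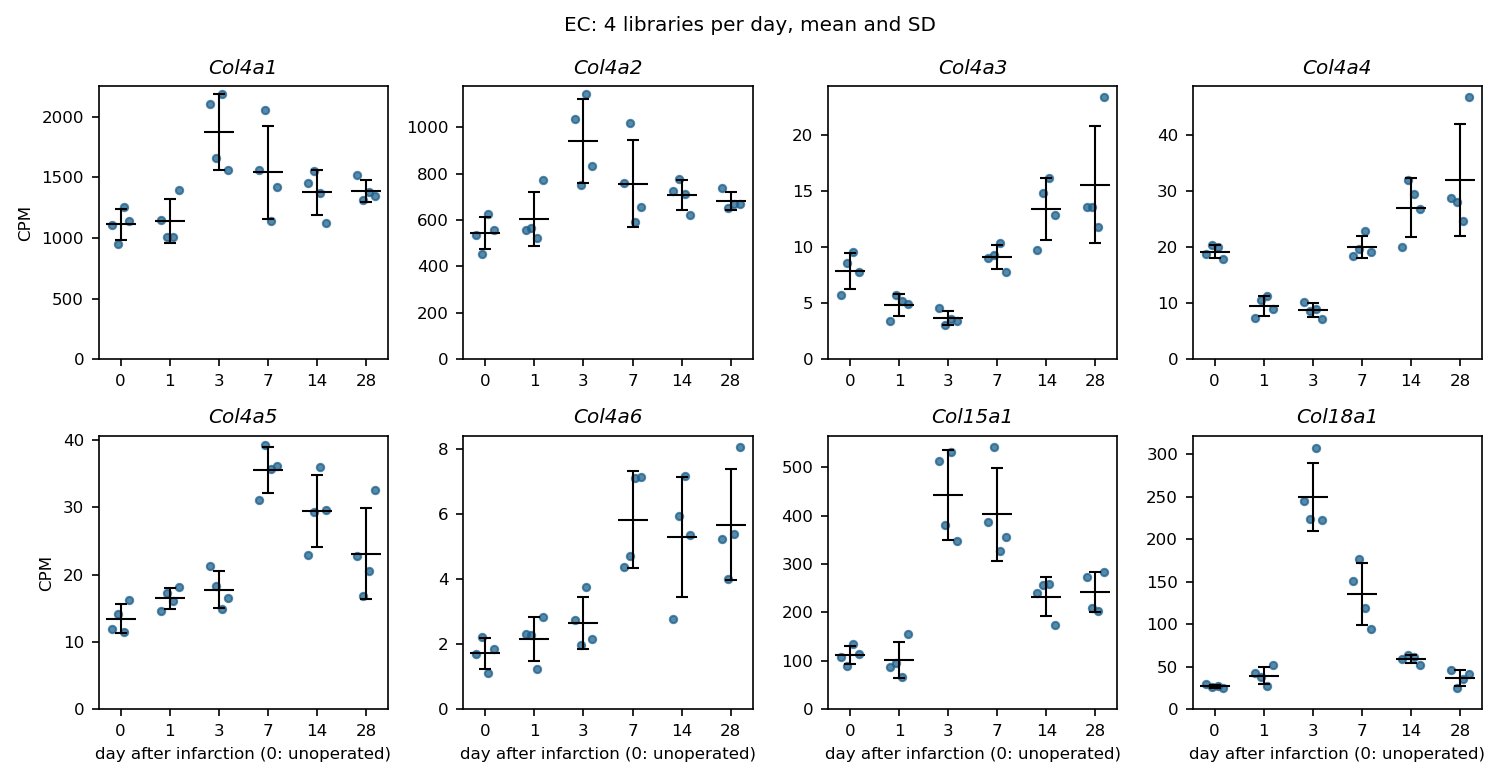
CPM of each gene in EC by day after AMI (0 is unoperated), with each library as a point and black bars for the mean and SD. Col18a1 peaks on Day 3 at 222 to 308, Col15a1 rises with it, Col4a3 and Col4a4 dip on Day 1 and Day 3, and Col4a5 and Col4a6 are highest from Day 7 on.

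In fibroblasts, the early response was a fall. Against Day 0, 6 results were higher and 11 lower of 40, with 5 genes called on Day 1 (all lower), 5 on Day 3 (2 higher, 3 lower), 4 on Day 7 (1 higher, 3 lower), 3 on Day 14 (all higher) and 0 on Day 28. On the same days 11.6%, 25.8%, 9.83%, 8.25% and 2.88% of 18658 genes were called higher and 6.36%, 23.3%, 4.52%, 2.62% and 0.606% lower. On Day 28, edgeR had 0 genes at an unadjusted p under 0.05, and DESeq2 called 0. On log2(TPM + 1), where the median tested gene moved by −1.19 on Day 3, the split was 0 higher and 13 lower.

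Col4a3 and Col4a4 fell furthest. Col4a3 had 24.8, 20.5, 26.4 and 19.6 CPM in FB on Day 1 and 22.7, 6.08, 13.1 and 10.8 on Day 3, against 81.7, 73.7, 89.2 and 80.9 at Day 0. The log2 fold changes were −1.83 ± 0.21 (adjusted p = 2.92e-06) and −2.49 ± 0.23 (adjusted p = 2.91e-08). Col4a4 had 66.0, 52.1, 62.7 and 51.6 CPM on Day 1 and 56.8, 79.1, 82.9 and 39.8 on Day 3, against 185, 179, 199 and 177 (−1.67 ± 0.18, adjusted p = 1.14e-06, and −1.55 ± 0.18, adjusted p = 8.81e-07). Neither gene's Day 1 or Day 3 libraries overlapped with Day 0. On Day 7 they were at −0.97 ± 0.21 and −1.03 ± 0.18, and by Day 28 Col4a3 had returned to 77.7, 81.2, 80.6 and 83.7 CPM (−0.01 ± 0.21, not called). Col4a4 was then at 142, 165, 148 and 174 CPM, all below Day 0 (−0.23 ± 0.17, adjusted p = 0.514), and was called lower on log2(TPM + 1) (−0.87, adjusted p = 0.0313). Without FB Day 3 replicates 2 and 3 and the other libraries that stood apart, Day 3 was −2.23 for Col4a3 and −1.91 for Col4a4.

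Col15a1, the member with the highest RPKM in FB at Day 0, fell as well. It had 764, 707, 621 and 639 CPM on Day 1 and 1011, 1030.0, 1048 and 705 on Day 3, against 1461, 1589, 1397 and 1404 at Day 0. All Day 1 and Day 3 libraries lay below Day 0 (−1.10 ± 0.13, adjusted p = 4.72e-06, and −0.63 ± 0.13, adjusted p = 0.000563). Its call on Day 7 (−0.43 ± 0.13) was lost without FB Day 0 replicate 1, 2 or 4 or FB Day 7 replicate 3 or 4 (−0.45 to −0.37, adjusted p = 0.0501 to 0.101). Col4a5 was lower on Day 1, with 80.7, 75.2, 65.0 and 69 CPM against 126, 141, 114 and 128 (−0.81 ± 0.22, adjusted p = 0.0114). Col4a6 on Day 1 was at −0.76 ± 0.23, a call that was lost without FB Day 0 replicate 2 or 4 or FB Day 1 replicate 3 or 4 (−0.76 to −0.64, adjusted p = 0.0576 to 0.0959).

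Col18a1 again rose from Day 3. It had 49.7, 72.3, 90.0 and 52.8 CPM in FB on Day 3 and 62.4, 52.2, 62.4 and 75.4 on Day 7, against 34.0, 37.1, 35.1 and 32.7 at Day 0 (0.90 ± 0.17, adjusted p = 0.000229, and 0.86 ± 0.17, adjusted p = 0.000878). The groups did not overlap, and Day 3 was at 0.58 (adjusted p = 0.00287) without the libraries that stood apart. On log2(TPM + 1) the Day 3 value was lower than Day 0 by −0.85. Col4a1 was called on none of the 5 days, with log2 fold changes of 0.007 to 0.26. Col4a2 was called on Day 3 (0.46 ± 0.19) and Day 14 (0.67 ± 0.19), but Day 3 was at 0.12 (adjusted p = 0.645) without the libraries that stood apart and at −1.56 on log2(TPM + 1), and lost its call without any one Day 0 library or FB Day 3 replicate 2 or 3 (adjusted p = 0.07 to 0.128). The Day 14 calls of Col4a2, Col4a5 (0.73 ± 0.22) and Col18a1 (0.59 ± 0.17) were each lost without FB Day 14 replicate 1 (adjusted p = 0.0715, 0.136 and 0.114) or FB Day 0 replicate 4 (adjusted p = 0.0738, 0.0716 and 0.0738), the last 2 also without FB Day 0 replicate 1 or 3 and Col4a5 without FB Day 14 replicate 3 (adjusted p = 0.0585 to 0.0974). Without the libraries that stood apart, Col4a2 (0.701, adjusted p = 0.00397) and Col4a5 (0.757, adjusted p = 0.00128) kept their Day 14 calls. Both were then also called higher on Day 7 (0.575, adjusted p = 0.0124, and 0.604, adjusted p = 0.00581). Col4a6 on Day 3 (−0.622, adjusted p = 0.0355) and Col4a4 on Day 14 (−0.43, adjusted p = 0.0287) were then called lower. On log2(TPM + 1), Day 14 was at −0.07 for Col4a2 and −0.12 for Col18a1.

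Markers moved in the FB isolate as well. On Day 1, when 5 of the 8 genes were called lower, 6 mesothelial markers summed to 32.7 to 64.3 CPM against 12.4 to 18.2 at Day 0 (5 of 6 called higher), 10 mural cell markers to 602 to 651 against 812 to 971 (1 called higher, 5 lower), 6 Schwann cell markers to 27.1 to 41.5 against 48.6 to 71.3 (0 called of 3 tested) and 4 FB markers to 1701 to 1883 against 1864 to 1984 (1 called lower). The summed CPM of 4 FB markers was 746 to 1237 on Day 3 against 1864 to 1984 at Day 0 (4 of 4 called lower), and that of 6 mesothelial markers was 115 to 209 against 12.4 to 18.2 (6 of 6 called higher). CM markers summed to 12.2 to 520.3 CPM on Day 3 against 22.5 to 44.0. The part of these cells in the FB results was not tested.

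**Figure D3:**
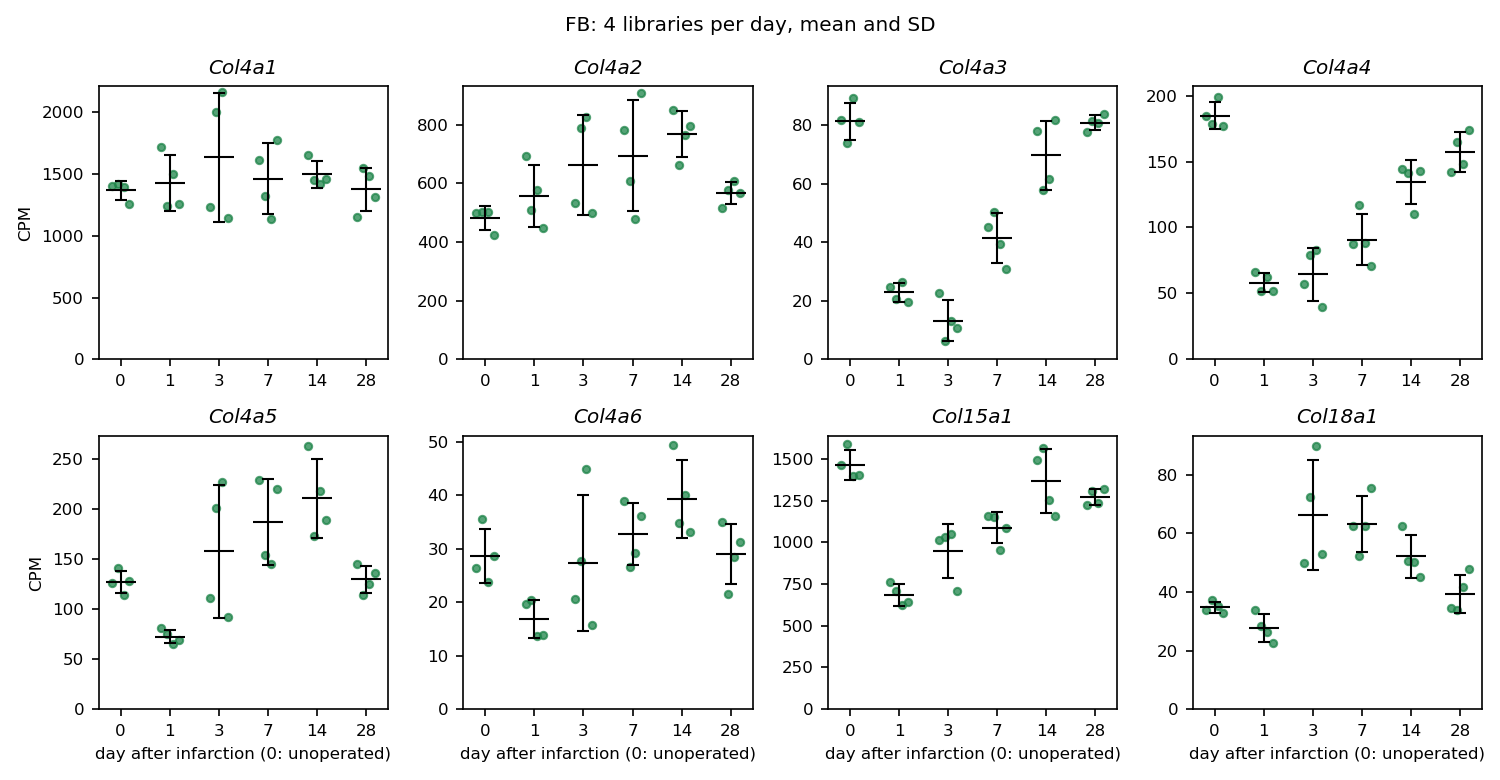
CPM of each gene in FB by day after AMI (0 is unoperated), with each library as a point and black bars for the mean and SD. Col4a3, Col4a4 and Col15a1 are lowest on Day 1 or Day 3, and on Day 28 Col4a4 (142 to 174 CPM) and Col15a1 lie under all Day 0 libraries, with no call. Col4a1 has no called change, and Col18a1 is highest on Day 3 and Day 7.

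Cardiomyocytes had low levels of most members, with higher values from Day 3. Against Day 0, 13 results were higher and 0 lower of 40, with 1 gene called on Day 1, 4 on Day 3, 3 on Day 7, 5 on Day 14 and 0 on Day 28. On the same days 6.8%, 16%, 8.92%, 8.05% and 2.49% of 14535 genes were called higher and 4.58%, 14.6%, 4.33%, 5.71% and 1.09% lower. DESeq2 called 0 lower and 0 on Day 28, and at an unadjusted p under 0.05 Day 28 had 3 higher and 1 lower and Day 1 had 1 lower. Without the filter on low counts, 10 results were higher and 0 lower. The higher calls include Col4a6 on Day 3, Day 7 and Day 14, which passed the filter only through days after Day 0. A fall of Col4a6 from Day 0 could hardly have been called, so these calls lend the split no weight. Col15a1 had 9.87, 13.5, 7.53 and 9.62 CPM on Day 3, against 2.84, 2.89, 2.02 and 1.56 at Day 0 (2.12 ± 0.30, adjusted p = 9.74e-06). Col18a1 had 2.23, 7.32, 2.59 and 5.96 CPM, against 0.359, 0.899, 0.440 and 0.838 (2.79 ± 0.43, adjusted p = 3.45e-05). Neither gene's groups overlapped, and both were still called on Day 7 (1.71 ± 0.30 and 2.11 ± 0.43).

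Col4a1 had 45.6, 64.0, 36.8 and 56.4 CPM in CM on Day 3, against 26.1, 35.6, 18.6 and 29.3 at Day 0 (0.89 ± 0.22, adjusted p = 0.00371). Its highest Day 0 library lay just under its lowest Day 3 library. Col4a5 was higher on Day 1, with 11.6, 11.6, 11 and 13.1 CPM against 7.79, 7.93, 7.96 and 9.38 (0.51 ± 0.13, adjusted p = 0.0104). Col4a6 was near the limit of detection at Day 0 (0.0367 to 0.196 CPM) and at 0.315 to 0.606 CPM on Day 3. Col4a4 was at 1.45, 1.14, 1.13 and 1.12 CPM on Day 14, against 0.587, 0.426, 0.367 and 0.575 (1.29 ± 0.28, adjusted p = 0.00342). On Day 14, Col15a1 (0.99 ± 0.30) lost its call without CM Day 0 replicate 3 or 4 or CM Day 14 replicate 1, 2 or 3 (adjusted p = 0.0531 to 0.0962), Col18a1 (1.60 ± 0.43) without CM Day 0 replicate 1 or CM Day 14 replicate 2 (adjusted p = 0.055 and 0.0571), and Col4a5 (0.40 ± 0.13) without CM Day 0 replicate 1, 2 or 3 or CM Day 14 replicate 2, 3 or 4 (adjusted p = 0.063 to 0.176). In CM libraries, 4 FB markers summed to 6.13 to 8.62 CPM on Day 3 against 1.94 to 4.11 at Day 0 (3 of 4 called higher), 6 mesothelial markers to 23.4 to 30.9 against 3.78 to 6.23 (6 of 6 called higher), and 4 HC markers to 5.14 to 7.21 against 0.196 to 0.587. Their part in the rises was not tested.

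In hematopoietic cells, every call against Day 0 was a fall. Against Day 0, 0 results were higher and 20 lower of 40, with 6 genes called on Day 1, 7 on Day 3, 4 on Day 7, 1 on Day 14 and 2 on Day 28. On the same days 23.8%, 23.1%, 13.9%, 6.8% and 10.4% of 18857 genes were called lower and 18.1%, 23.3%, 14.1%, 6.11% and 11.4% higher. DESeq2 called 0 higher, and at an unadjusted p under 0.05 there was 1 higher, on Day 28. Col4a1 had 52.1, 53.6, 54.3 and 39.0 CPM on Day 3, against 153, 191, 184 and 213 at Day 0 (−1.90 ± 0.17, adjusted p = 8.38e-09). Col4a2 had 31.3, 29.8, 30.1 and 20.3 CPM, against 82.9, 114, 101 and 118 (−1.90 ± 0.19, adjusted p = 4.65e-08). Col4a3 had 0.279, 0.948, 0.603 and 0.342 CPM, against 3.90, 2.92, 3.52 and 3.80 (−2.70 ± 0.32, adjusted p = 4.52e-07). Col15a1 was lowest on Day 1, with 12.4, 13.8, 13.2 and 16.3 CPM against 45.6, 48.2, 51.8 and 58.2 (−1.87 ± 0.18, adjusted p = 3.01e-08). None of these groups overlapped.

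Col18a1 was the member without a call in HC. It had 5.13, 4.11, 5.4 and 4.79 CPM on Day 3, against 4.44, 5.38, 5.12 and 7.23 at Day 0 (−0.20 ± 0.17, adjusted p = 0.375), and the groups overlapped. Between Day 7 and Day 3, 7 of the 8 genes were higher in HC, by 0.79 ± 0.17 (Col4a1) to 1.76 ± 0.45 (Col4a6), where 11% of genes were called higher. The Day 14 call of Col4a1 (−0.50 ± 0.16) was lost without HC Day 0 replicate 2, 3 or 4 or any one HC Day 14 library (adjusted p = 0.0626 to 0.149), and the Day 3 call of Col4a6 (−1.39 ± 0.46) without HC Day 0 replicate 3 or 4 (adjusted p = 0.0516 and 0.0759).

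Markers of other cells fell in the same HC libraries. On Day 3 the summed CPM of 4 EC markers was 99.2 to 108 against 407 to 622 at Day 0 (4 of 4 called lower), that of 10 mural cell markers 74.0 to 93.1 against 461 to 670.0 (10 of 10 called lower), that of 4 CM markers 214 to 476 against 1608 to 2632 (4 of 4 called lower) and that of 4 FB markers 16.9 to 28.6 against 55.5 to 67.1 (4 of 4 called lower). The 4 HC markers summed to 1402 to 1533 CPM on Day 3 against 895 to 1079.6. The part of these cells in the falls was not tested.

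**Figure D4:**
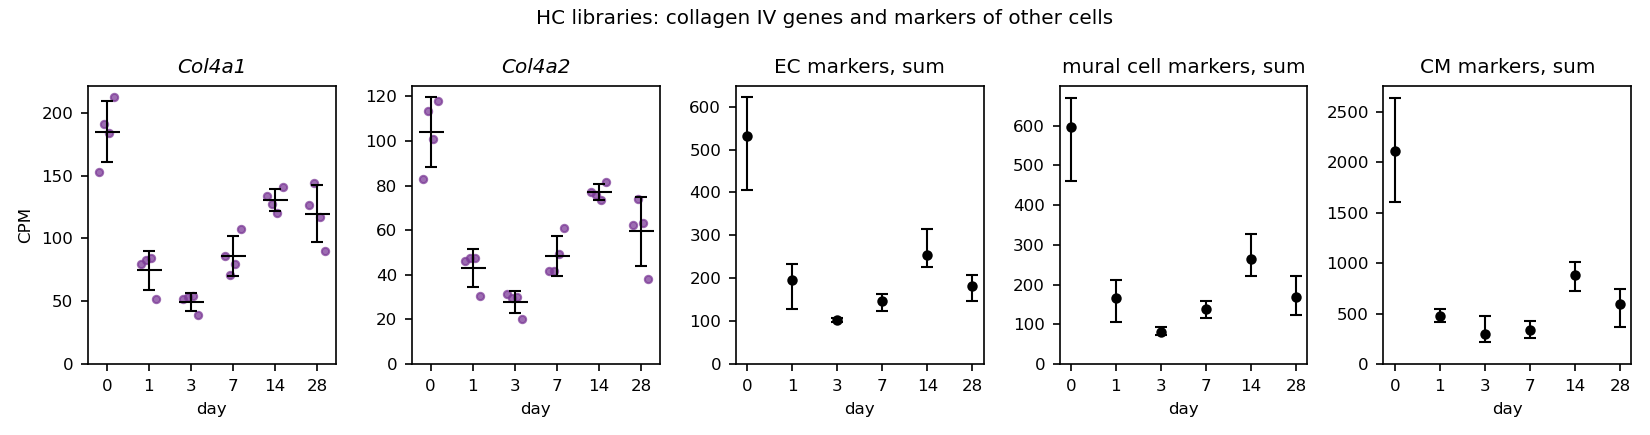
CPM in HC by day after AMI of Col4a1 and Col4a2 (each library as a point, with the mean and SD) and of the summed EC, mural cell and CM markers (mean, with bars from the lowest to the highest library). Both genes and the EC and mural cell markers are lowest on Day 3, when the 4 EC markers sum to 99.2 to 108 CPM.

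The change from Day 0 in a cell type was then compared with the mean change in the other cell types. In EC on Day 3 this difference was 2.09 ± 0.29 for Col18a1, 1.97 ± 0.26 for Col15a1, 1.11 ± 0.24 for Col4a2, 1.04 ± 0.22 for Col4a1 and 0.93 ± 0.22 for Col4a5, 5 of 8 genes called higher where 8.41% of all genes were. In FB on Day 3, 5 of 8 were called, all lower, where 21.5% of all genes were (Col15a1 −1.83, Col4a3 −1.33, Col18a1 −1.31, Col4a6 −1.0 and Col4a4 −0.68). The scaling by DESeq2's size factors moved FB Day 3 differences by 0.29, and the median of all genes there was −0.194. Under these factors the calls of Col4a4 (−0.36, adjusted p = 0.319) and Col4a6 (−0.67, adjusted p = 0.233) were lost. They were also lost without replicate 1, 2 or 4 of every group for Col4a4 (adjusted p = 0.0696 to 0.127) and without any one replicate number (adjusted p = 0.0775 to 0.193) or without the filter on low counts (−1.04, adjusted p = 0.0564) for Col4a6. The call of Col4a5 in EC was lost without replicate 1 of every group (0.73, adjusted p = 0.0615) and on log2(TPM + 1) (0.53, adjusted p = 0.0511). The other 7 of these 10 values kept their calls under every alternative run. In HC on Day 3 all 8 were called lower and in CM all 8 higher, where 16.3% and 14.4% of all genes were. On Day 7, 3 genes were called higher in EC and 4 lower in FB, where 3.28% and 5.67% of all genes were. These differences share libraries between cell types, and the falls in HC enter the mean against which CM, EC and FB were set. A higher value here is therefore not always a rise. Col4a3 in CM was at 0.209 ± 0.0982 CPM on Day 3, against 0.274 ± 0.127 at Day 0. Col4a5 in EC was not called on Day 3 against Day 0. Col18a1 in FB was lower by this measure, though called higher on Day 3 than at Day 0 within FB.

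**Figure D5:**
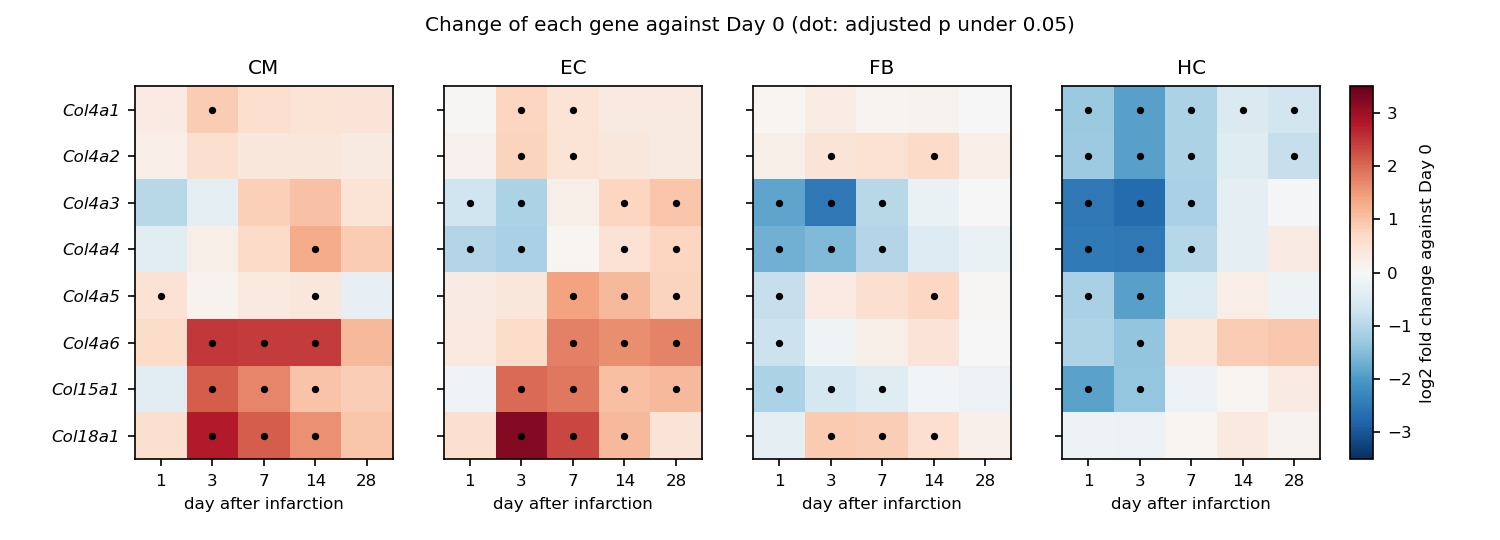
Log2 fold change against Day 0 of the 8 genes (rows) on each later day (columns) in CM, EC, FB and HC, in color, with a dot for an adjusted p under 0.05. Red (higher) blocks of Col15a1 and Col18a1 stand in EC and CM from Day 3, and blue (lower) blocks of Col4a3 and Col4a4 in FB and HC on Day 1 and Day 3.

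Col18a1 has a pair of starts, and transcripts were listed singly for CM, EC and HC Day 1 and Day 7. The upstream start, which gives the short form in the mouse, took nearly all reads. In EC, the downstream start took 1.77% ± 1.06 of the reads of both at Day 0, 1.30% ± 0.431 on Day 1, 0.661% ± 0.46 on Day 3, 2.56% ± 1.31 on Day 7, 4.04% ± 1.52 on Day 14 and 4.99% ± 2.44 on Day 28. In HC it took 7.38% ± 7.0 on Day 1 and 9.06% ± 3.99 on Day 7. On Day 3, the EC libraries together had 23630.6 estimated reads of the upstream start, 180.9 of the downstream start and 703.7 of internal fragments, against 2338.5, 43.2 and 137.5 at Day 0. Transcript shares were estimated by the authors' software from reads that most transcripts share, and their error is not known.

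The genes that act with these collagens were followed in 5 lists of 43 genes in all (laminin chains, nidogens and heparan sulfate proteoglycans, folding and crosslinking, receptors, proteases and inhibitors). In EC, 24 were higher and 5 lower on Day 3, and 27 higher and 1 lower on Day 7, of 42 tested, where 23.2% and 22.3%, and 18% and 19.6% of all genes were called higher and lower. On Day 7 against Day 0 in EC, Lamc1, the laminin γ1 chain, was at 571 ± 59.6 against 292 ± 33.1 CPM (0.97 ± 0.13), and Nid1, which links laminin to collagen IV, at 527 ± 63.9 against 269.7 ± 42.4 CPM (0.97 ± 0.12). Loxl2, a crosslinking enzyme of collagen IV, was at 162 ± 35.7 against 51.7 ± 14.0 CPM (1.65 ± 0.19). Plod2, a lysyl hydroxylase, was at 77.2 ± 14.6 against 36.2 ± 4.81 CPM (1.09 ± 0.16). Timp1, an inhibitor of matrix metalloproteinases, was at 35.6 ± 15.3 against 1.95 ± 2.21 CPM (4.23 ± 0.61). Among receptors, Itga2 was at 11.1 ± 5.47 against 3.28 ± 0.559 CPM (1.76 ± 0.27), and Itga1, the α1 chain of a collagen IV binding integrin, at 476 ± 39 against 726 ± 64.8 CPM (−0.61 ± 0.09), with a value of 0.49 on log2(TPM + 1). The median log2 fold change of a list on Day 7 was 0.45 (receptors) to 2.05 (proteases and inhibitors) in EC, beside −0.039 over all genes.

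Fibroblasts split within the lists. On Day 3, 19 of 43 genes were higher and 14 lower, where 25.8% and 23.3% of all genes were, and on Day 7 15 were higher and 4 lower, where 9.83% and 4.52% were. Laminin chains had a median of −0.69 on Day 3 (2 higher, 7 lower of 11), and folding and crosslinking genes of 0.81 (9 higher, 0 lower of 12), beside −0.021 over all genes. On Day 7 against Day 0, Sparc, a collagen binding protein of the matrix, was at 4661 ± 1113 against 1489 ± 90.9 CPM (1.65 ± 0.17) and Plod2 at 259 ± 67.8 against 81.8 ± 4.46 CPM (1.66 ± 0.16). Lamb1, the laminin β1 chain, was at 710.2 ± 118 against 1181 ± 102 CPM (−0.73 ± 0.15), and Lama5 at 26.0 ± 5.65 against 7.65 ± 1.81 CPM (1.77 ± 0.30). Agrn, the gene of agrin, was at 94.8 ± 13.1 against 53.4 ± 3.81 CPM (0.83 ± 0.15), and Mmp14, a membrane-bound metalloproteinase, at 338 ± 38.5 against 184 ± 10.8 CPM (0.87 ± 0.20). Lama2, the laminin α2 chain, was at 1120.0 ± 244 against 1826 ± 104 CPM (−0.71 ± 0.21), a call that was lost without FB Day 0 replicate 1, 2 or 3 or FB Day 7 replicate 1, 3 or 4 (adjusted p = 0.05 to 0.107).

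In CM, 22 partner genes were higher and 1 lower on Day 3, where 16% and 14.6% of all genes were. Sparc was at 102 ± 23.2 CPM on Day 7 against 24.6 ± 4.44 at Day 0 (2.05 ± 0.23) and Nid1 at 14.6 ± 3.5 against 6.34 ± 1.13 (1.20 ± 0.20). In HC, 11 were higher and 24 lower on Day 3, where 23.3% and 23.1% were. Laminin chains and nidogens and proteoglycans fell there (9 of 10 and 4 of 4 tested, medians −1.76 and −1.64 beside −0.016 over all genes). On Day 7, Lamb2, the laminin β2 chain, was at 27.4 ± 7.35 against 72.6 ± 12.8 CPM (−1.41 ± 0.17) and Itga1 at 29.2 ± 2.70 against 98 ± 16.1 CPM (−1.75 ± 0.16), while Mmp14 was at 55.1 ± 5.74 against 13.9 ± 1.55 CPM (1.99 ± 0.18).

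The genes most like 3 of the members were taken by Pearson's r of log2 levels over the 24 group means, among 8206 genes. Nearest to Col4a1 were Col4a2 (0.995), Tgfb1i1 (0.991), Cnn3 (0.99), Mpzl1 (0.987) and Cald1 (0.987). Nearest to Col15a1 were Dnm3os (0.99), Robo1 (0.984), Nid1 (0.982), Gli3 (0.982) and Fbln2 (0.981). For Col18a1 they were Cd109 (0.94), Slc30a4 (0.936), Fscn1 (0.936), Tspan6 (0.923) and Map1b (0.92). The means come from the same libraries, and levels that differ between cell types set most of each value.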

How the data were processed

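Ribo-depleted total RNA libraries were made from 4 cell types on 6 days, each cell type as a batch of its own. Adaptors were removed by the authors with Trim Galore, and transcripts were quantified with Salmon from STAR 2.28 alignments (mm10). The files deposited by the authors hold estimated counts (expected counts) and TPM. In 56 files the 137734 entries are transcripts, which were summed per gene, and in 40 files the 51398 entries are genes. Reads without a gene (at most 0.363% of a library) were left out, as were 162 genes, whose lengths differed between the kinds of file, from the HC fit and the fit across cell types. No member was among them. Gene names and mm10 coordinates came from GENCODE M21.

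Rounded counts went into edgeR 4.0.16 under R 4.3.3 (TMM, filterByExpr, robust quasi-likelihood fit), with the 24 libraries of a cell type in 1 fit for the days and all 96 in 1 fit for cell types. P-values were adjusted over all genes tested by Benjamini and Hochberg. An SE was taken from the log2 fold change and its F value. Alternatives used limma 3.58.1, with a pseudocount of 1 on TPM, and DESeq2 1.42.0. Tables were made with Python 3.11.15 and pandas 2.3.3. The code was tested on simulated data. RPKM was used for levels in place of the planned TPM, a choice made after seeing the data, because the estimated share of short transcripts, to which TPM gives more weight, differed between groups (Col4a1-206 took 8.96% ± 0.358 of Col4a1 reads in EC on Day 28, against 1.47% ± 2.92 at Day 0). CPM were taken over all reads, rRNA included (53.1% to 63.5% of reads in CM libraries and 2.21% to 27.5% in the others). Whether counting used strand is not given in the sources used here. Of 144 pairs of replicates, 0 were identical.

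The members and lists were chosen with earlier results of these data known. Partner genes were named by rule, as up to 2 highest and 2 lowest called genes of a list on Day 7 with a mean of at least 5 CPM, and some of those are given. For Col4a1, Col15a1 and Col18a1, the 5 genes most alike were named.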

Additional observations from a re-analysis of the deposited data

Results flagged for a closer look

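Within 15 of 192 sets of 4 libraries (a gene in a group), the highest or lowest library lay farther from the others than Dixon's 95% limit for 4 values, which chance passes in about 1 of 20 sets. In EC, Col4a2 on Day 1 was at 775 CPM in replicate 4, against 522 to 565 in the others, and Col4a3 on Day 28 at 23.4 CPM in replicate 4, against 11.8 to 13.6. In FB at Day 0, replicate 4 was low for Col4a1 (1255 CPM, against 1399 to 1423) and Col4a2 (423, against 497 to 503). In FB, Col4a4 on Day 14 was at 110.0 CPM in replicate 3, against 142 to 144, and Col15a1 on Day 3 at 705 CPM in replicate 4, against 1011 to 1048. In CM, Col4a5 at Day 0 was at 9.38 CPM in replicate 4, against 7.79 to 7.96, and Col4a4 on Day 14 at 1.45 CPM in replicate 1, against 1.12 to 1.14. In HC, replicate 4 of Day 1 was low for Col4a1 (51.8 CPM, against 79.9 to 84.5) and Col4a2 (30.5, against 46.3 to 47.8). Replicate 4 of HC Day 3 was low for Col4a1 (39.0 CPM, against 52.1 to 54.3), Col4a2 (20.3, against 29.8 to 31.3) and Col4a6 (0.057, against 0.469 to 0.474). Col4a4 in HC at Day 0 was at 9.27 CPM in replicate 4, against 7.07 to 7.32, and Col18a1 in HC on Day 28 at 4.97 CPM in replicate 2, against 6.28 to 6.47.

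The change from Day 0 differed from the mean change in the other cell types, by the test of that difference, in 17 cases in EC and FB on Day 3 and Day 7. In EC on Day 3 these were Col18a1 (2.09), Col15a1 (1.97), Col4a2 (1.11), Col4a1 (1.04) and Col4a5 (0.93), and on Day 7 Col15a1 (1.51), Col18a1 (1.34) and Col4a5 (1.27), all log2 differences. In FB on Day 3 they were Col15a1 (−1.83), Col4a3 (−1.33), Col18a1 (−1.31), Col4a6 (−1.0) and Col4a4 (−0.68), and on Day 7 Col15a1 (−1.60), Col4a6 (−1.40), Col4a3 (−1.0) and Col4a4 (−0.98). Without one replicate number the calls on Day 7 were lost for Col18a1 in EC (without replicate 2, 1.01), for Col4a3 in FB (without replicate 3 or 4, −0.91 and −0.80) and for Col4a6 in FB (without replicate 2, 3 or 4, −1.19 to −1.35).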

How the results depend on the processing

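The alternatives were DESeq2, DESeq2's size factors in edgeR, no filter on low counts, the replicate number as a block, each library left out in turn, limma on log2(TPM + 1) and leaving out the 8 libraries that stood apart, which were known from earlier results of these data. Of 286 results of single genes, 279 kept their direction and call under DESeq2's size factors, 270 without the filter and 196 under limma on log2(TPM + 1). The largest moves came with limma on log2(TPM + 1), on a scale where the median tested gene itself moved by up to −1.19 (FB Day 3). The cause was not tested. Calls higher than Day 0 numbered 6 in CM (13 in the main test) and 0 in FB (6), and calls lower 0 in EC (4) and 7 in HC (20). Calls between following days were 3 in CM (6), 13 in FB (6) and 3 in HC (12), calls of partner genes 42 in CM (72), 38 in FB (86) and 65 in HC (124), and changes that differed between cell types 12 in HC (26), 7 in CM (17), 30 in FB (16) and 29 in EC (15).

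On log2(TPM + 1) the sign of 18 results turned. In FB, Day 3 against Day 0 was −2.12 for Col4a1, −1.56 for Col4a2, −0.85 for Col4a5 and −0.85 for Col18a1, Day 14 against Day 0 −0.07 for Col4a2 and −0.119 for Col18a1, and Day 3 against Day 1 −0.17 for Col4a5, −1.29 for Col15a1 and −0.345 for Col18a1. Against the other cell types, EC were at −0.187 for Col4a3, −0.142 for Col4a4 and −0.197 for Col4a6, and CM at −0.921 for Col4a5. In CM, Col4a5 was at 0.058 on Day 3 against Day 1 and Col4a3 at −0.01 on Day 7 against Day 3. In HC, Col4a3 was at 0.037 on Day 7 against Day 0 and Col4a2 at 0.229 on Day 3 against Day 1, and in EC Itga1 was at 0.493 on Day 7 against Day 0.

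Leaving out one library or replicate number gave 10 to 14 higher calls in CM, 18 to 24 in EC, 2 to 8 in FB and 0 to 1 in HC, and 0 lower calls in CM, 3 to 4 in EC, 9 to 12 in FB and 18 to 21 in HC. It gave 3 to 6, 10 to 12, 4 to 7 and 7 to 13 calls between following days in CM, EC, FB and HC, and 11 to 16, 8 to 16, 9 to 12 and 18 to 24 changes that differed between cell types. The low counts of higher calls in FB came without FB Day 0 replicates 1, 3 and 4 (3, 3 and 2) and FB Day 14 replicate 1 (2), those between following days without CM Day 1 replicate 1 (3) and HC Day 1 replicate 1, 2 or 3 (7 each), and the higher call in HC without HC Day 3 replicate 4. Changes that differed between cell types fell to 11 in CM without replicate 2, 3 or 4, to 8 and 9 in EC without replicates 1 and 2, and to 9, 9 and 10 in FB without replicates 2, 3 and 4. Partner calls were 56 to 72 in CM, 96 to 123 in EC, 68 to 91 in FB and 104 to 129 in HC, and calls against the other cell types did not move (8, 7, 8 and 8). Without the 8 libraries that stood apart, 8 changes of EC differed from the other cell types (15).

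Same-numbered libraries of different days did not deviate together in every pair (mean correlation 0.226, −0.0327, −0.00581 and 0.0769 for CM, EC, FB and HC, with lowest values of −0.141, −0.502, −0.428 and −0.296), so the numbers were not taken to pair the samples. The closest library had the same number in 61, 21, 26 and 36 of 120 matches, where unrelated numbers would give about 1 in 4. In CM, same-numbered libraries thus deviated together more than others did (mean correlation −0.0748 for other numbers). A rule that asks for every pair cannot exclude a pairing there. With the replicate block, higher calls were 17, 22, 4 and 0 for CM, EC, FB and HC, and lower calls 0, 4, 11 and 19. The calls it added in CM were Col4a2 on Day 3 (0.59, adjusted p = 0.00564) and Col4a1 on Day 7, 14 and 28 (0.585, 0.484 and 0.448, adjusted p = 0.00452, 0.0163 and 0.0448). Across the cell types of a day, whose pools share mice, the sources used here do not say that equal numbers mark the same mice, and same-numbered libraries had mean correlations of 0.0154 to 0.0952, the closest having the same number in 10 to 22 of 48 matches (again about 1 in 4 for unrelated numbers). With day and number together as a block, every cell type kept its number of calls against the others, and changes that differed between cell types numbered 16, 15, 16 and 26. Depth limited Col4a6 in CM, with 1 to 6 reads in each Day 0 library, and FB on Day 3, where replicates 2 and 3 were the shallowest libraries.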
